A study of Mus musculus with 21 samples.

Results

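The genes described here are 8 members of the mouse apolipoprotein L family: Apol6, Apol8, Apol9a, Apol9b, Apol10a, Apol10b, Apol11a and Apol11b. They were taken by gene symbol from 22483 genes in the tables, and the family was chosen on the steep early rise of several members in TPM after the cells were switched to erythropoietin (Epo). The difference between 12 h and 0 h is therefore given as a description with no test. Transcripts were counted from strand-specific libraries of polyadenylated RNA of MEDEP cells (BRC5 line), which are erythroid progenitors grown from mouse embryonic stem cells. At 0 h the cells were proliferating with 50 nM stem cell factor (SCF) and with dexamethasone, a glucocorticoid. In the other groups both had been withdrawn and 4 U/ml Epo, the hormone of red cell production, had been added for 12, 24, 36, 48 or 72 h. A further group at 12 h received Epo together with succinyl acetone (SA), which stops the cell from making heme. There were 3 biological replicates in each of 7 groups, and all 21 libraries came from this single cell line without any genetic change being named.

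Apolipoprotein L proteins are lipid-binding proteins with helices that resemble those of channel-forming and BCL2-type proteins, and most act inside the cell. The best known human member, APOL1, circulates on high-density lipoprotein and kills trypanosomes, whereas mice have no direct counterpart and carry their own cluster of related genes. Apol9a and Apol9b are near-identical genes known to be induced by interferon. Epo acts through its receptor and the kinase JAK2 on the transcription factor STAT5, which binds GAS motifs. Type I interferon acts through a complex that contains IRF9 and binds the interferon-stimulated response element (ISRE). GATA1, the leading erythroid factor, binds GATA motifs.

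In GRCm38 all 8 protein-coding genes lie on chromosome 15, and 7 of them fall within 353 kb. From one end of this cluster to the other come Apol9a (ENSMUSG00000057346.11, 77403789 to 77411135, minus strand), Apol10a (ENSMUSG00000050982.12, 77477047 to 77491069, plus strand) and Apol11a (ENSMUSG00000091650.1, 77508271 to 77518051, plus strand). Next come Apol10b (ENSMUSG00000050014.7, 77583819 to 77596125, minus strand) and Apol11b (ENSMUSG00000091694.8, 77633946 to 77643286, minus strand). The cluster ends with Apol9b (ENSMUSG00000068246.5, 77729039 to 77736382, plus strand) and Apol8 (ENSMUSG00000056656.5, 77747798 to 77757003, minus strand). Apol6 (ENSMUSG00000033576.11, 77044729 to 77057106, plus strand) stands 347 kb away from the cluster.

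The 250 bases before the annotated start are shown for members whose course over time is compared below, from RefSeq on GRCm38.p6. Of the 8 members 7 have such a sequence, and Apol6 is not among them. Capitals mark matches, on either strand, to 3 motifs: GAS (TTCNNNGAA), ISRE (GAAA, any 2 bases, GAAA) and GATA (GATAA after an A or a T).
Apol11b (chr15:77643287-77643536, minus strand): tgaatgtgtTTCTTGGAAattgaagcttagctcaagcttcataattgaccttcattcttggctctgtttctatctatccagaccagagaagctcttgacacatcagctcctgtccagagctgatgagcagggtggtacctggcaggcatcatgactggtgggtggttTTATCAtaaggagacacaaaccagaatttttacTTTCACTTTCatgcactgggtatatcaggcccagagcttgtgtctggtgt
Apol10a (chr15:77476797-77477046, plus strand): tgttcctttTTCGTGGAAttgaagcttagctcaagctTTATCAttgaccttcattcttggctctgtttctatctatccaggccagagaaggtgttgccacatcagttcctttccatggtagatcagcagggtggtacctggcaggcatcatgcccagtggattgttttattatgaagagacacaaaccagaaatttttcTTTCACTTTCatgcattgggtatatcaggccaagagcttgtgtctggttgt
Apol10b (chr15:77596126-77596375, minus strand): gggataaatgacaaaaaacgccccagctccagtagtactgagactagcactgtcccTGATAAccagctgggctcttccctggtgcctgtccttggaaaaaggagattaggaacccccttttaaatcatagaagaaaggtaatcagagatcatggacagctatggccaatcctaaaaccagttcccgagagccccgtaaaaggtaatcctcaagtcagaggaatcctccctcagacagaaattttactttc
Apol8 (chr15:77757011-77757260, minus strand): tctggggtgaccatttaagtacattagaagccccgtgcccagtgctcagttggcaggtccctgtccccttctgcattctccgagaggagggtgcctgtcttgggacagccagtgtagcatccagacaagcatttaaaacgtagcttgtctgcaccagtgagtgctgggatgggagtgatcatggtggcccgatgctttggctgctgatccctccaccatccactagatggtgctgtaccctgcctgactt
For Apol9b a stretch of 30 bases round its ISRE matches is shown, and Apol9a has the same 30 bases. In both genes this stretch lies before the RefSeq start but runs across the gene start by the positions given above.
Apol9b (chr15:77729028-77729057, plus strand): gtgagacTTTCAGTTTCCATTTCccagttg

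The windows of Apol11a and Apol11b were identical over all 250 bases, although the genes lie 116 kb apart on opposite strands. The window of Apol10a matched them at 87.6% of 249 aligned bases, against 56.6% of 221 for Apol10b and 63.6% of 217 for Apol8. Apol10a, Apol11a and Apol11b each held 1 GAS match at position -241 from the start, a motif found in 7.02% of 32851 mouse windows of this length. The narrower form TTCTNGGAA, found in 1.92% of windows, was present in Apol11a and Apol11b. The same 3 genes held 1 ISRE match, at -50 in Apol11a and Apol11b and at -51 in Apol10a, and Apol9a and Apol9b held 2 overlapping ones, TTTCAGTTTC and TTTCCATTTC. An ISRE match occurred in 2.98% of all windows. GATA matches, found in 16.6% of windows, were present in Apol10a, Apol10b, Apol11a and Apol11b. The window of Apol8 held no match to these 3 motifs and 1 E-box (CAGNTG, found in 44.8% of windows), which Apol9a, Apol9b and Apol10b held too. The KLF motif CCNCNCCC, found in 45.9% of windows, was present in Apol9a and Apol9b. A match describes the letters and does not show binding.

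**Figure D1:**
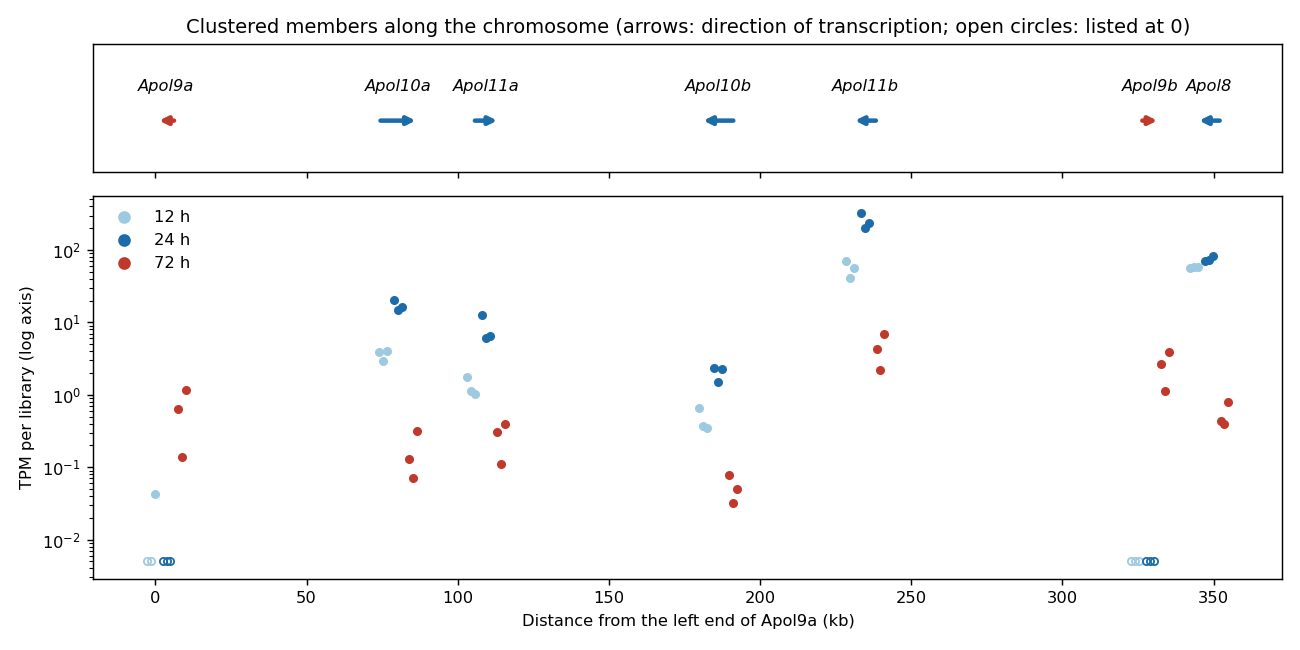
Position and level of the 7 clustered members. The upper panel shows each gene along the chromosome, as distance in kb from the left end of Apol9a, with arrows in the direction of transcription. The lower panel shows TPM on a log axis in each library at 12, 24 and 72 h, points set slightly apart at each gene. Apol9a and Apol9b are listed at 0 at 24 h. Apol9a lies at one end of the cluster, and Apol9b lies next to Apol8, which is at the other end and reached 71.6 to 82.5 TPM at 24 h.

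The libraries held 16.7 to 39.3 M estimated counts, and 12360 genes passed the filter on low counts, all 8 members among them. Members near 0 in some groups passed through the groups in which they were high, so counts of members called are descriptions to be read against the share of all genes called. Levels are given as counts-per-million scaled by TMM (CPM), which hold the middle of the tested genes level, and as the deposited TPM, which are shares of a library corrected for transcript length. These scales part after 24 h, when globin rose from 4.26 to 5.07% of counts at 24 h to 22.3 to 22.8% at 36 h and 31.7 to 37% at 72 h. From 24 h to 36 h the median log2 change of the tested genes was -0.03 on the TMM scale and -1.89 in TPM. At 24, 48 and 72 h, each against the time before, it was -0.28, -0.55 and -0.58 in TPM and between -0.07 and 0.00 with TMM. All 9 erythroid markers, among them Gata1, Klf1 and Alas2, were above 0 in every group. Summed markers of neutrophils, dendritic cells and endothelium were at most 4.44, 2.72 and 1.39 CPM in any library, and mast cell markers at most 30.7 CPM. The 7 stromal markers summed to 24.4 CPM in replicate 1 at 36 h and to at most 1.33 CPM in other groups, and results at 36 h are therefore also given without that library where they change.

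The members took different courses. In TPM Apol8, Apol10a, Apol10b, Apol11a and Apol11b, called the early members below, were near 0 before the switch, highest in mean at 24 h and lower at 72 h than at 12 h. On the TMM scale 4 of these 5 were highest in mean at 36 h and Apol8 at 24 h. On that scale 72 h lay below 12 h without overlap for Apol8, overlapped it for Apol10a and Apol11b, and lay above it for Apol10b and Apol11a. Apol9a and Apol9b were at or near 0 through 24 h, appeared at 36 h and were highest at 72 h. Apol6 stayed below 0.4 TPM in every library. In bulk RNA fewer cells with a transcript and less of it per cell cannot be told apart, and this applies to all values below. Summed over the 8 members, TPM was 0.848 ± 0.182 at 0 h (mean ± SD, n = 3), 119 ± 13.7 at 12 h, 359 ± 67.6 at 24 h, 178 ± 53.6 at 36 h, 56.2 ± 28.6 at 48 h and 8.86 ± 4.72 at 72 h.

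**Figure D2:**
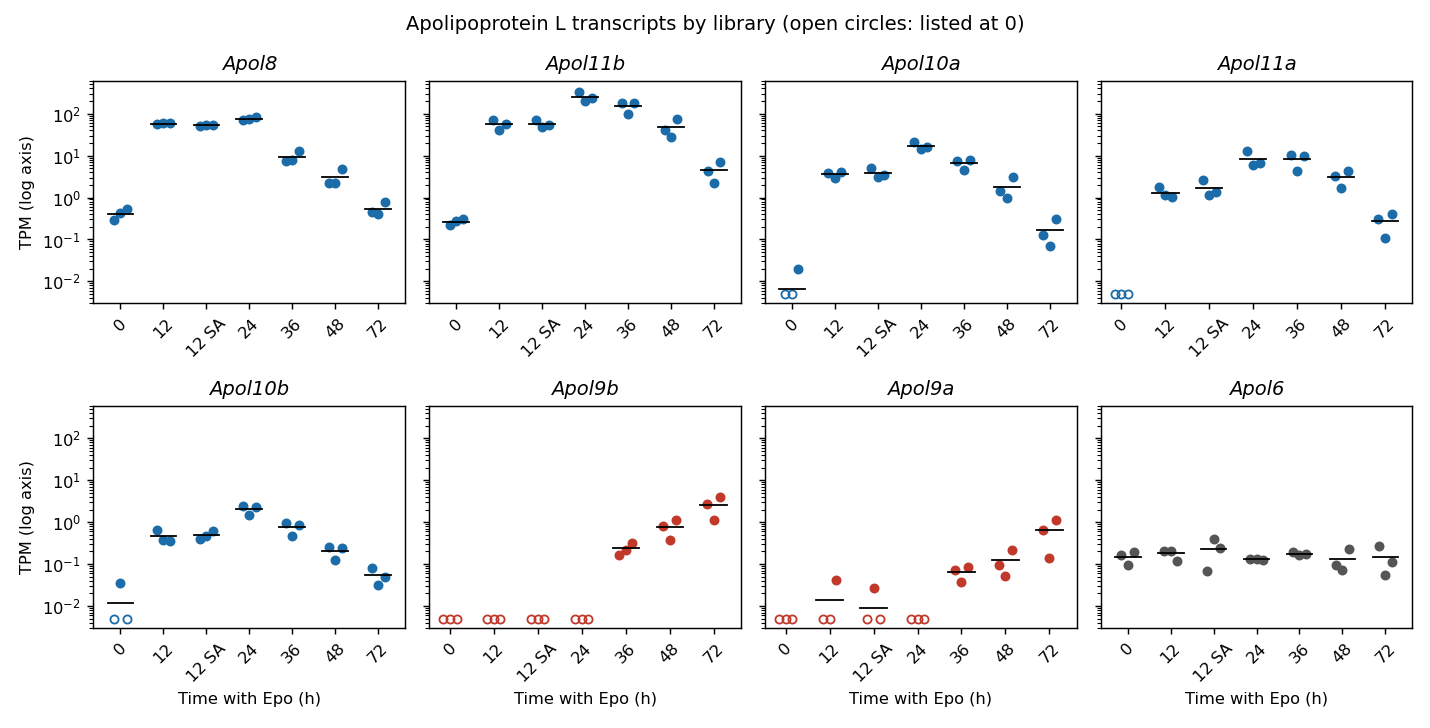
TPM of each member in every library, on a log axis shared by the 8 panels. Points are libraries in order of replicate number, lines are group means of 3 libraries, and open circles at the bottom are libraries in which the gene is listed at 0. The 5 early members (blue) are highest in mean at 24 h, the Apol9 pair (red) at 72 h, and Apol6 (grey) stays between 0.0547 and 0.387 TPM.

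Apol8 was the member with the steadiest values between replicates at 12 h. Its TPM was 0.290, 0.428 and 0.521 in replicates 1, 2 and 3 at 0 h, and 55.7, 58.8 and 58.5 at 12 h. It was 71.6, 73.4 and 82.5 TPM at 24 h, then 7.61, 7.79 and 12.8 at 36 h. At 48 h the values were 2.27, 2.23 and 4.92 TPM, and at 72 h 0.441, 0.394 and 0.788. No library of one time overlapped the next along the course, while 72 h and 0 h overlapped in TPM. On the TMM scale 72 h (4.75 to 8.55 CPM) lay above 0 h (0.248 to 0.444 CPM) without overlap, so how far Apol8 returned to its starting level depends on the scale.

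The log2 change of Apol8 from 0 h to 12 h was 7.19 ± 0.25 on the TMM scale (SE, n = 3 against 3 here and below), the rise for which it was chosen. From 12 h to 24 h it rose further by 0.73 ± 0.16 on that scale (edgeR, adjusted p = 0.000975), whereas its change in log2(TPM + 1) was 0.39 ± 0.20 (limma, adjusted p = 0.171). From 24 h to 36 h it fell by 0.93 ± 0.16 on the TMM scale (edgeR, adjusted p = 3.45e-05) and by 2.92 ± 0.20 in log2(TPM + 1) (limma, adjusted p = 5.35e-10). Apol8 was thus the member that turned down at 36 h on both scales. It then fell by 1.01 ± 0.17 to 48 h (edgeR, TMM scale, adjusted p = 5.81e-05) and by 1.72 ± 0.20 to 72 h (adjusted p = 2.37e-07), and in TPM in the same direction with limma.

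Apol11b reached the highest level of the family. Its TPM was 0.217, 0.282 and 0.304 at 0 h and 69.8, 41.2 and 56.0 at 12 h. It stood at 325, 203 and 238 TPM at 24 h and at 177, 98.3 and 181 at 36 h. By 48 h it was at 39.7, 27.2 and 74.0 TPM, and by 72 h at 4.28, 2.23 and 6.92. In TPM the order was 24 h, 36 h, then 12 h with SA, 12 h and 48 h, which overlapped, then 72 h and 0 h, which did not. On the TMM scale the order differed, with 36 h first at 404 to 639 CPM, then 48 h and 24 h, which overlapped at 195 to 335 and 184 to 277 CPM. In both orders 72 h lay above 0 h without overlap, by 16.7-fold in mean TPM and 260-fold in mean CPM.

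The log2 change of Apol11b to 12 h was 7.86 ± 0.42 on the TMM scale, again a description. From 12 h to 24 h it rose by 2.51 ± 0.26 (edgeR, TMM scale, adjusted p = 2.37e-07) and by 2.18 ± 0.36 in log2(TPM + 1) (limma, adjusted p = 0.000148). The scales disagreed from 24 h to 36 h: on the TMM scale it rose by 1.32 ± 0.25 (edgeR, adjusted p = 8.04e-05), and in log2(TPM + 1) the change was -0.77 ± 0.36 (limma over all genes above 0 in 3 libraries, adjusted p = 0.0735, and 0.0297 when genes below a mean TPM of 1 are left out). On both scales it fell afterwards, by 1.07 ± 0.25 to 48 h (edgeR, TMM scale, adjusted p = 0.00126) and by 2.66 ± 0.27 to 72 h (adjusted p = 3.74e-08).

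Apol10a had the next highest level after Apol8 at 24 h. It was listed at 0, 0 and 0.0198 TPM at 0 h, and stood at 3.88, 2.95 and 3.99 TPM at 12 h and at 20.6, 14.7 and 16.2 at 24 h. Its TPM was 7.51, 4.62 and 8.02 at 36 h, 1.46, 0.988 and 3.03 at 48 h, and 0.130, 0.0703 and 0.316 at 72 h. All 3 libraries at 24 h lay above every other library in TPM. At 12 h it had 594 counts over the group against 1 at 0 h, a ratio of 600 with a 95% counting interval of 107 to 23700. It rose by 2.55 ± 0.25 from 12 h to 24 h (edgeR, TMM scale, adjusted p = 1.15e-07). To 36 h it rose by 0.71 ± 0.23 on the TMM scale (edgeR, adjusted p = 0.00935) but fell by 1.25 ± 0.23 in log2(TPM + 1) (limma, adjusted p = 0.000103). It then fell by 1.29 ± 0.24 and by 2.74 ± 0.32 at 48 h and 72 h (edgeR, TMM scale, adjusted p = 0.000183 and 2.53e-07).

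Apol11a, the near copy of Apol11b, ran at a small part of its level. It was listed at 0 in all 3 libraries at 0 h and stood at 1.79, 1.13 and 1.02 TPM at 12 h, 12.6, 6.09 and 6.50 at 24 h, and 10.6, 4.39 and 9.83 at 36 h. Its TPM was 3.22, 1.66 and 4.21 at 48 h and 0.305, 0.109 and 0.395 at 72 h. The libraries at 24 h and 36 h overlapped, and those at 12 h lay below both. Against a floor of 3 counts over the 0 h group, the 76 counts at 12 h were at least 25.6-fold higher. It rose by 2.93 ± 0.39 from 12 h to 24 h (edgeR, TMM scale, adjusted p = 1.01e-05). Between 24 h and 36 h it rose by 1.90 ± 0.33 on the TMM scale (edgeR, adjusted p = 4.51e-05), while the change in log2(TPM + 1) was -0.03 ± 0.31 (limma, adjusted p = 0.973). Its fall of 0.84 ± 0.33 from 36 h to 48 h (edgeR, TMM scale, adjusted p = 0.0428) was lost without replicate 1 at 36 h (-0.63, adjusted p = 0.178) and with DESeq2 (-0.72, adjusted p = 0.0936). It was also lost without replicate 3 at 36 h (edgeR, adjusted p = 0.119), replicate 2 or 3 at 48 h (0.169 and 0.0587) or when only the compared libraries were fitted (0.0558). In log2(TPM + 1) that fall was 1.18 ± 0.31 (limma, adjusted p = 0.00599). To 72 h it fell by 2.87 ± 0.42 (edgeR, TMM scale, adjusted p = 9.82e-06).

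Apol10b was the lowest of the early members. It was listed at 0, 0.0360 and 0 TPM at 0 h, and stood at 0.656, 0.375 and 0.348 TPM at 12 h and 2.37, 1.5 and 2.3 at 24 h. It was at 0.975, 0.459 and 0.839 TPM at 36 h, 0.249, 0.124 and 0.239 at 48 h, and 0.0792, 0.0324 and 0.0506 at 72 h. As for Apol10a, the 3 libraries at 24 h were above all others in TPM. The 51 counts at 12 h against 1 at 0 h gave a ratio of 51.5 (95% counting interval 8.84 to 2070). Its rise from 12 h to 24 h was 2.44 ± 0.35 (edgeR, TMM scale, adjusted p = 1.17e-05). At 36 h the values were 0.75 ± 0.31 on the TMM scale (edgeR, adjusted p = 0.037) and -0.80 ± 0.12 in log2(TPM + 1) (limma, adjusted p = 7.95e-06), and the first was lost without replicate 1 at 36 h (0.50, adjusted p = 0.214). It was also lost without replicate 3 at 36 h (edgeR, adjusted p = 0.0796) and without replicate 2 or 3 at 24 h (0.164 and 0.0582). It fell by 1.13 ± 0.34 to 48 h (edgeR, TMM scale, adjusted p = 0.00923, and 0.0598 without replicate 1 at 36 h). The fall of 1.16 ± 0.40 to 72 h (edgeR, TMM scale, adjusted p = 0.0175) was lost when only the compared libraries were fitted (adjusted p = 0.0505) and without replicate 1 at 48 h or replicate 2 or 3 at 72 h (0.115, 0.0502 and 0.0563). In log2(TPM + 1) that change was -0.19 ± 0.12 (limma, adjusted p = 0.252).

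The Apol9 pair appeared late. Apol9b had 0 counts in all 12 libraries at 0, 12 and 24 h and at 12 h with SA, which allows at most 0.0236 CPM in a group when 3 counts are taken as the limit. Its TPM was 0.168, 0.220 and 0.325 at 36 h, 0.791, 0.382 and 1.13 at 48 h, and 2.67, 1.13 and 3.88 at 72 h. The libraries at 36 h lay below all at 48 h, while those at 48 h and 72 h met in TPM and did not overlap in CPM (2.51 to 4.81 against 15.9 to 30.3). Its 38 counts at 36 h were at least 33.5-fold above the floor at 24 h. It rose by 2.33 ± 0.38 to 48 h and by 2.47 ± 0.29 to 72 h on the TMM scale (edgeR, adjusted p = 0.000253 and 9.95e-06). In log2(TPM + 1), where low values are compressed, these changes were 0.49 ± 0.20 (limma, adjusted p = 0.0656) and 0.95 ± 0.20 (adjusted p = 0.000961).

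Apol9a took the same course at a lower level. It had 1 count in each of the groups at 12 h with and without SA and none at 0 and 24 h. Its TPM was 0.0709, 0.0366 and 0.0845 at 36 h, 0.0957, 0.0512 and 0.222 at 48 h, and 0.639, 0.138 and 1.15 at 72 h. Neighbouring times overlapped in TPM, and in CPM 72 h (1.82 to 8.08) lay above 48 h (0.313 to 0.800). The 9 counts at 36 h were at least 7.94-fold above the floor at 24 h. From 36 h to 48 h its log2 change was 1.47 ± 0.75 (edgeR, TMM scale, adjusted p = 0.118), and from 48 h to 72 h it rose by 3.18 ± 0.54 (adjusted p = 7.54e-05). Apol9a passed the filter on low counts through its libraries at 72 h, with 72, 28 and 121 counts against 10, 5 and 10 at 48 h. The p for the rise to 72 h is therefore a description. Transcripts of Apol9a and Apol9b are 96.2% identical, and 64.9% of the 31-base words of Apol9b transcripts also occur in Apol9a, so the division of reads between them is uncertain. Their summed counts rose by 2.20 ± 0.38 to 48 h and by 2.58 ± 0.29 to 72 h (edgeR, TMM scale, adjusted p = 0.000131 and 9.92e-07).

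Apol6, outside the cluster, was low throughout. Its TPM ran from 0.0929 to 0.190 at 0 h, 0.121 to 0.210 at 12 h, 0.124 to 0.135 at 24 h, 0.166 to 0.196 at 36 h, 0.0738 to 0.224 at 48 h and 0.0547 to 0.265 at 72 h. These ranges overlapped except between 24 h and 36 h. On the TMM scale the mean was 0.132 ± 0.00674 CPM at 24 h (SD, n = 3) and 0.783 ± 0.0334 at 36 h, a rise of 2.53 ± 0.52 (edgeR, adjusted p = 0.000188), whereas log2(TPM + 1) changed by 0.06 ± 0.08 (limma, adjusted p = 0.551). The group held 17 counts at 24 h and 38 at 36 h. With 7, 6 and 4 counts at 24 h, under the minimum of 10, Apol6 passed the filter on low counts through later groups. The p for its rise to 36 h is therefore a description. Its change to 72 h was 0.89 ± 0.43 (edgeR, TMM scale, adjusted p = 0.0792), and with DESeq2 it passed the threshold at 1.03 (adjusted p = 0.0457). It also passed without replicate 3 at 48 h (1.22, edgeR, adjusted p = 0.0396) or without replicate 2 at 72 h (1.11, adjusted p = 0.0451).

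Read across the family, the steps looked as follows. From 0 h to 12 h, the contrast that chose the members, their calls are not counted (25.3% of all tested genes were called higher and 27.6% lower). From 12 h to 24 h, which shares the 12 h libraries with that contrast, the 5 early members were higher and none lower, with edgeR and with DESeq2, also at an unadjusted p of 0.05. The background was 19.1% higher and 22% lower. From 24 h to 36 h 7 members were called higher and Apol8 lower on the TMM scale (34.1% and 39% of all genes), all but Apol10b also without replicate 1 at 36 h. In log2(TPM + 1) none was higher and Apol8, Apol10a and Apol10b were lower with limma, and none was higher at an unadjusted p of 0.05 (3.44% of 16772 genes were called higher and 58.8% lower on that scale). From 36 h to 48 h Apol9b was higher and the 5 early members lower (20% and 29.7% of all genes), and without replicate 1 at 36 h 3 of the 5 were lower. From 48 h to 72 h the Apol9 pair was higher and the 5 early members lower (24.7% and 34.5% of all genes). The last 3 steps use none of the libraries that chose the members, but Apol9a passed the filter on low counts through its 72 h libraries. At 24 h the group held 17 counts of Apol6 and 0 of Apol9a and Apol9b. Apol6 and Apol9b also passed the filter through later groups, so the calls of Apol6, Apol9a and Apol9b at 36 h are descriptions.

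**Figure D3:**
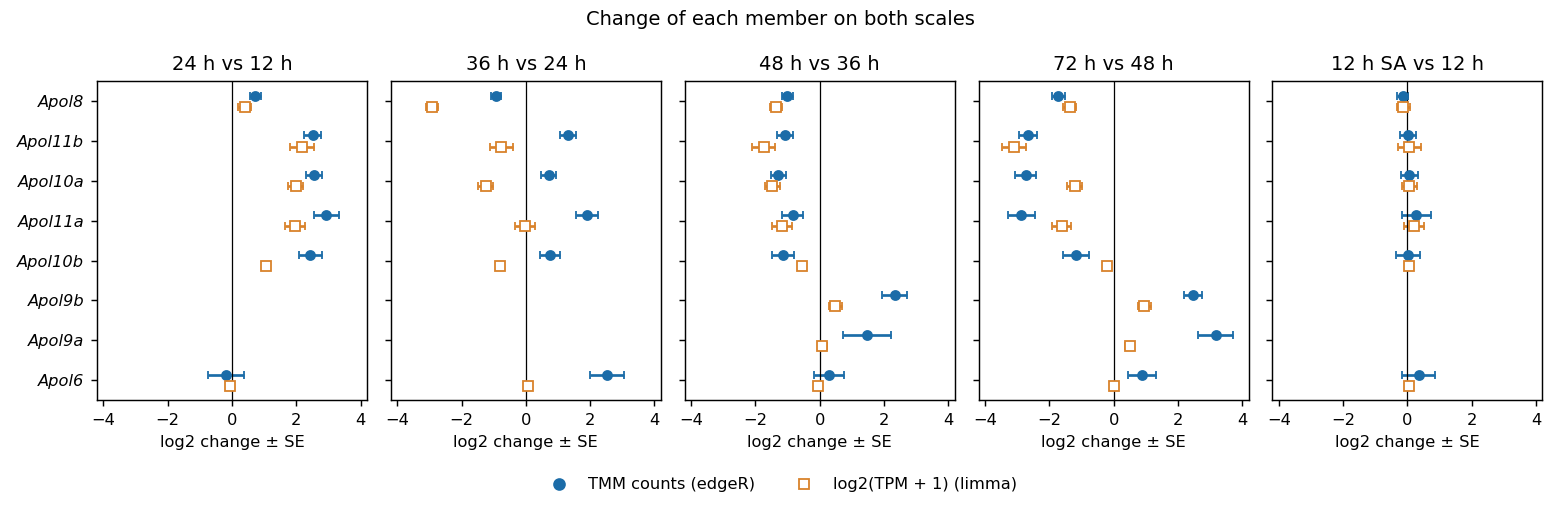
Log2 change ± SE of each member in the 5 comparisons that were tested, on the TMM scale (filled circles, edgeR) and in log2(TPM + 1) (open squares, limma). Members with 3 or fewer counts in a group are not drawn for that comparison. At 36 h against 24 h the scales point in opposite directions for Apol10a, Apol10b and Apol11b, Apol11a is near 0 in TPM, and Apol8 is below 0 on both.

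With succinyl acetone no member was called at 12 h, and for Apol8, Apol10a and Apol11b the intervals stayed between 0.714 and 1.51 times the level without it. Apol8 stood at 50.2, 55.1 and 52.9 TPM with SA against 55.7, 58.8 and 58.5 without, ranges that did not overlap, and at 46.8 to 48.3 CPM against 51.4 to 53.9. Its log2 change was -0.15 (95% interval -0.48 to 0.18, edgeR, adjusted p = 1). Apol11b stood at 70.7, 48.0 and 53.8 TPM with SA, overlapping the 3 libraries without it. Its change was 0.03 (-0.49 to 0.55), and that of Apol10a 0.06 (-0.48 to 0.60). The intervals of the low members were wider, at -0.78 to 0.82 for Apol10b, -0.65 to 1.21 for Apol11a and -0.70 to 1.40 for Apol6, so larger changes of these members could have been missed. Fitted over all 21 libraries, none of the 8 was called by edgeR, DESeq2 or limma, and none had an unadjusted p under 0.05 with any of them (0.38% of all tested genes were called with edgeR). Apol9a and Apol9b could not have been called, with 1 count against 1 and 0 against 0 over the groups, so their response to SA is unknown. When edgeR was fitted to the compared libraries alone, 1 of 5 members tested had an unadjusted p under 0.05, Apol8, with a change of -0.17 ± 0.04 (adjusted p = 0.0677). These libraries also share the 12 h group with the contrast that chose the members.

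Ratios of members within a library do not depend on how libraries are scaled. The TPM of Apol11b was 0.701 to 1.25 times that of Apol8 at 12 h, and 0.870 to 1.41 times with SA. It was 2.76 to 4.53 times that of Apol8 at 24 h, 12.6 to 23.3 times at 36 h, 12.2 to 17.5 times at 48 h and 5.66 to 9.71 times at 72 h. The ratios at 12 h thus lay on both sides of 1, and those at 24 h and 36 h lay above. The log2 ratio differed without overlap by 1.81 between 12 h and 24 h, by 2.28 between 24 h and 36 h and by -0.91 between 48 h and 72 h. In a 2-sided exact permutation test each gave p = 0.1, the smallest that 3 against 3 allows (0.167 after adjustment over 5 comparisons), so this test could not pass the threshold. Between 36 h and 48 h the ratios overlapped (difference -0.12, exact permutation p = 0.8).

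**Figure D4:**
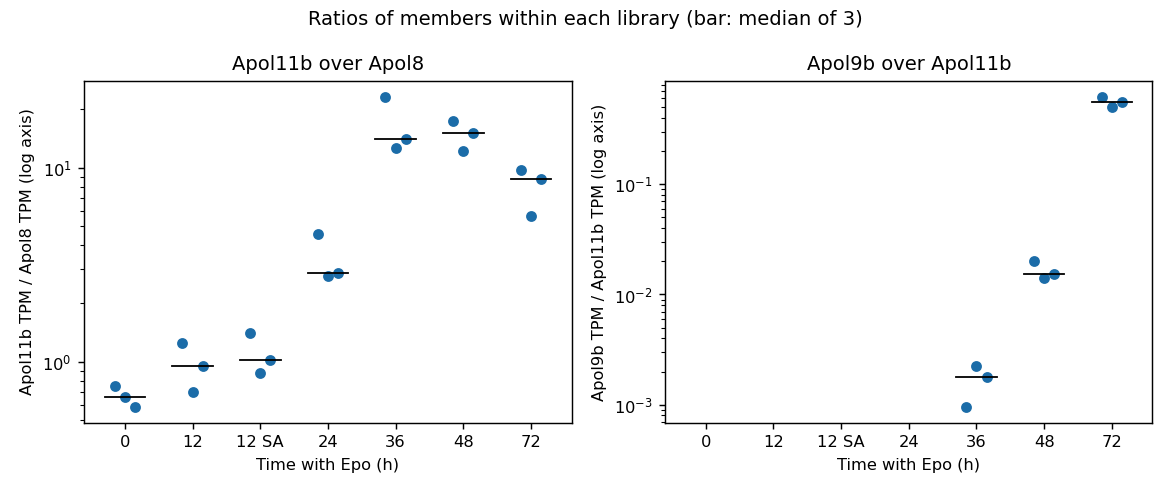
Ratio of TPM within each library, on log axes, for Apol11b over Apol8 (left) and Apol9b over Apol11b (right). Points are libraries and bars the median of 3. The left ratio climbs from about 1 at 12 h to 12.6 to 23.3 at 36 h, and the right ratio, absent before 36 h because Apol9b has 0 counts, reaches 0.508 to 0.623 at 72 h.

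The make-up of the family changed with time. Apol8 held 49.0 ± 6.98% of the summed TPM of the 8 genes at 12 h (SD, n = 3) and 5.49 ± 1.57% at 36 h. Apol11b held 46.3 ± 6.74% at 12 h, 70.6 ± 3.95% at 24 h and 85.5 ± 1.09% at 36 h. Apol9b, at 0.142 ± 0.0547% at 36 h, reached 28.7 ± 1.53% at 72 h, when Apol11b still held 51.0 ± 2.49%. The ratio of Apol9b to Apol11b went from 0.000947 to 0.00224 at 36 h over 0.0140 to 0.0199 at 48 h to 0.508 to 0.623 at 72 h. The ratio of Apol10a to Apol11b was 0.0557 to 0.0715 at 12 h and lower, at 0.0304 to 0.0457, at 72 h. That of Apol11a to Apol11b was 0.0182 to 0.0275 at 12 h and higher, at 0.0489 to 0.0711, at 72 h, although the windows before their starts are identical. Of the 31-base words of Apol11a transcripts 29.9% also occur in Apol11b, so part of the Apol11a level may belong to its more abundant copy. Summed, Apol11a and Apol11b rose by 2.52 ± 0.26 from 12 h to 24 h and by 1.33 ± 0.25 to 36 h on the TMM scale (edgeR, adjusted p = 2.46e-07 and 7.65e-05).

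Over the 21 libraries, which share the time course and the TMM scale, log2 CPM of Apol10a and Apol11b had a Pearson r of 0.989 and that of Apol9a and Apol9b one of 0.976. Apol8 had r = 0.866 with Apol11b and -0.083 with Apol9b. The non-members most like each member were then ranked among 10128 genes with a mean of at least 1 CPM. For Apol8 these were the tetraspanin Tspan14 (r = 0.993), Uros, an enzyme of heme synthesis (0.986), and Grtp1 (0.983). Apol11b was most like Abcb10, a mitochondrial transporter of erythroid cells (0.992), Gch1, the first enzyme of tetrahydrobiopterin synthesis (0.990), and Cgn (0.986). Apol10a was most like Hagh (0.991), Abcb10 (0.991) and Gp9, a platelet glycoprotein (0.987). Furin, Stom and Csnk1a1 came first for Apol11a (0.982, 0.979 and 0.978), and Fes, Fdft1 and Carhsp1 for Apol10b (0.972, 0.969 and 0.967). Apol9b was most like Ifih1 (0.995), a sensor of viral RNA, Adar (0.994), which edits double-stranded RNA, and Irf9 (0.994), the DNA-binding subunit of the factor that binds the ISRE. Apol9a was most like Trim30d, Ifit1bl1 and Trim69 (0.985, 0.985 and 0.984), and Apol6 like Mfsd4b5, Olfr1254 and Cd300a (0.966, 0.959 and 0.958). Many genes came almost as close to the Apol9 pair: r was over 0.95 for 683 genes with Apol9b and 186 with Apol9a, against 20 with Apol8 and 61 with Apol11b.

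Gp9 is 1 of 7 listed megakaryocyte markers. They summed to 17.5 to 22.1 CPM at 0 h, 21.7 to 23.7 at 12 h, 114 to 127 at 24 h, 1170 to 1540 at 36 h, 1640 to 1890 at 48 h and 666 to 1190 at 72 h, with Ppbp at 0 throughout and Pf4 at 0 at 0 h and 12 h. In TPM the sum was 12.9 to 16.2 at 0 h, 34.7 to 41.4 at 12 h, 109 to 114 at 24 h, 149 to 173 at 36 h, 107 to 184 at 48 h and 28.1 to 59.7 at 72 h. On the TMM scale the sum at 12 h thus overlapped that at 0 h, and it was highest at 48 h. In TPM the sum at 12 h lay above that at 0 h without overlap, and the sums at 36 h and 48 h overlapped. The part of megakaryocytes in the levels of the family was not tested.

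Most of the listed interferon-stimulated genes rose from 36 h on, the time at which the Apol9 pair appeared. Of 30 listed genes 27 were tested. From 0 h to 12 h 3 were higher and 2 lower (25.3% and 27.6% of all tested genes). From 12 h to 24 h it was again 3 and 2 (19.1% and 22% of all tested genes). In the step from 24 h to 36 h 24 were higher and 1 lower (34.1% and 39% of all tested genes). The median log2 change of the 27 was 4.43 on the TMM scale (all tested genes -0.03). From 36 h to 48 h 25 were higher and none lower (20% and 29.7% of all tested genes, list median 2.22). From 48 h to 72 h all 27 were higher (24.7% of all tested genes, list median 2.65). The largest rises were those of Oasl2, of the oligoadenylate synthetase family, by 8.33 ± 0.31 to 36 h, Ifit3 by 3.74 ± 0.58 to 48 h and Ifi27l2a by 5.45 ± 0.57 to 72 h (edgeR, adjusted p = 8.57e-15, 2.14e-05 and 2.92e-06). The mean of Ifit3 was 0.378 CPM at 36 h and 5.21 at 48 h, and that of Ifi27l2a 0.0817 at 48 h and 3.78 at 72 h. Both passed the filter on low counts through later groups. Their p and the counts of list genes called are therefore descriptions. Ifit2 went the other way at 36 h, by -0.94 ± 0.36 (edgeR, adjusted p = 0.0264). The list summed to 63.0 to 69.2 CPM at 24 h, 775 to 1190 at 36 h, 3310 to 4250 at 48 h and 15000 to 25200 at 72 h, and in TPM to 44.1 to 53.7, 198 to 260, 422 to 836 and 1220 to 3020. The early members fell from 36 h to 48 h and from 48 h to 72 h on the TMM scale. From 24 h to 36 h Apol10a, Apol11a and Apol11b, which hold an ISRE match, rose on that scale by 0.71, 1.90 and 1.32. In log2(TPM + 1) they changed by -1.25, -0.03 and -0.77 in that step. The part of the ISRE match was not tested. Macrophage markers summed to 0.787 to 0.870 CPM at 0 h and 10.4 to 12.1 CPM at 72 h, but to 1.39 to 1.86 and 0.461 to 0.899 in TPM, with Marco at 0 in both groups, and their part was not tested.

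**Figure D5:**
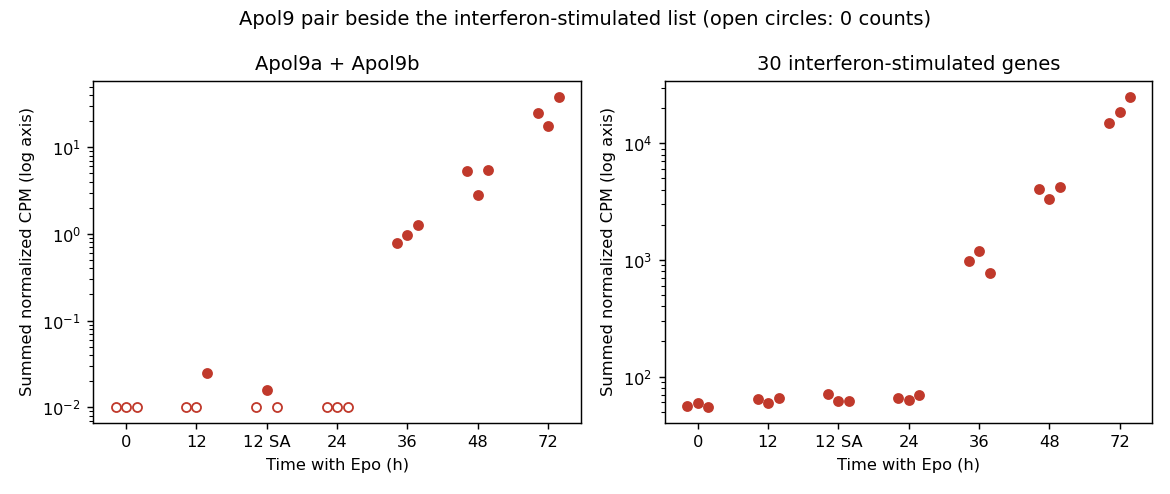
Summed CPM (TMM scale, log axes) of Apol9a and Apol9b (left) and of the 30 listed interferon-stimulated genes (right) in each library. Open circles mark libraries with 0 counts of the pair. Both sums are flat through 24 h and climb at 36, 48 and 72 h, the pair from 0.778 to 1.25 CPM at 36 h to 17.7 to 38.4 at 72 h.

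Among 16 targets of Epo and STAT5, 15 were tested. At 12 h 12 were higher than at 0 h and 1 lower (25.3% and 27.6% of all tested genes). The median log2 change of the 15 was 3.08 (all tested genes -0.01). The largest rise was that of Cish, a feedback inhibitor of cytokine receptors, by 7.77 ± 0.20 (edgeR, adjusted p = 7.74e-17), and the fall was that of Spred2 (-3.80 ± 0.12, adjusted p = 7.75e-16). From 12 h to 24 h 8 were higher and 1 lower (19.1% and 22% of all tested genes). From 24 h to 36 h it was 6 and 6, near the shares of all tested genes (34.1% and 39%). From 48 h to 72 h 2 were higher and 8 lower (24.7% and 34.5% of all tested genes). From 12 h to 72 h the mean of Cish went from 190 to 430 CPM but from 136 to 23.5 TPM. Over the same time Apol8 went from 52.6 to 6.92 CPM and from 57.6 to 0.541 TPM, and Apol11b from 38.9 to 41.9 CPM and from 55.7 to 4.48 TPM. With SA 1 of the 15 was lower and none higher: Trib3, a pseudokinase of the stress response, at -2.17 ± 0.39 (edgeR, adjusted p = 0.0111). Of all tested genes 0.38% were called in that comparison.

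Neighbouring genes, like the tested genes as a whole, moved in both directions at 12 h. Further apolipoprotein L genes were not counted as neighbours. Of 35 remaining protein-coding genes between the outermost members, Apol6 and Apol8, or within 500 kb of them, 27 were tested. From 0 h to 12 h 9 were higher and 9 lower (25.3% and 27.6% of all tested genes, neighbour median -0.11). From 12 h to 24 h it was 5 and 7, near the shares of all tested genes (19.1% and 22%). From 24 h to 36 h it was 5 and 19 (34.1% and 39% of all tested genes). Myh9, the non-muscle myosin next to Apol8, changed by 0.25 to 12 h (edgeR, adjusted p = 0.0507) and fell by 1.37 to 36 h (adjusted p = 4.54e-10). Beyond it, Txn2 changed by -0.16 and Foxred2 by -0.72 to 12 h (edgeR, adjusted p = 0.124 and 3.29e-06). On the other side, beyond Apol6, the nearest tested genes were 1110038F14Rik (-0.30, adjusted p = 0.0723), Zfp647 (-1.87, adjusted p = 4.15e-05) and the ribosomal gene Rpl8 (-0.07, adjusted p = 0.533). The largest rise among the neighbours was that of Ncf4, a subunit of the phagocyte oxidase, by 4.79 ± 0.25 to 12 h (edgeR, adjusted p = 1.87e-12) and by 3.26 ± 0.15 to 36 h.

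Few other apolipoprotein genes had enough counts to be tested. Of 6 further genes of the L family 3 were tested, and none was called at 12 h against 0 h. Apold1, a gene with an apolipoprotein L domain known from endothelium, rose by 1.38 ± 0.16 to 24 h and by 3.11 ± 0.15 to 72 h (edgeR, adjusted p = 1.1e-06 and 3.33e-12). Of 17 other apolipoprotein genes 6 were tested, and at 12 h Apoe, the ligand by which lipoprotein remnants are cleared, fell by 1.18 ± 0.24 (edgeR, adjusted p = 0.00027) and the mitochondrial protein gene Apool rose by 0.34 ± 0.13 (adjusted p = 0.0365).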

How the data were processed

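The authors deposited 2 tables of 22483 genes: estimated counts, and TPM computed by the authors. Of the deposited estimated counts 78.5% were whole (tolerance 1e-06). The tools named per the submitters' processing notes are STAR 2.5.3a, kallisto and DESeq2, and the builds mm10 and GRCm38.p5. Which of them made which table is not given in the sources used here. Members, gene lists, marker lists and motifs were chosen with earlier results of these data known.

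Counts were rounded. Genes passing filterByExpr (minimum count 10) were kept, libraries were scaled by TMM, and contrasts of group means were tested in 1 quasi-likelihood model of 21 libraries (edgeR 4.0.16, R 4.3.3), 2-sided, with Benjamini-Hochberg adjustment over 12360 genes and a threshold of 0.05. The biological coefficient of variation was 11.6%. Standard errors were derived from each change and its F statistic. Groups with 0 counts were set to 3 counts over the group, and such bounds and intervals reflect counting error alone. The TPM were tested as log2(TPM + 1) with limma 3.58.1, over genes above 0 in 3 libraries unless stated, which understates changes of low genes. Replicates of a group differed by more than sampling noise (chi-square per gene 6.6 to 270 over 21 pairs). Replicate numbers paired the libraries (correlations of deviations over 7242 genes, all above 0.1) in 4 of the 6 comparisons: 0.318 to 0.503 for 24 h with 12 h, 0.16 to 0.478 for 48 h with 36 h, 0.37 to 0.389 for 72 h with 48 h, 0.358 to 0.429 for SA with 12 h. What a replicate number stands for is not stated. On simulated counts for 36 h against 24 h (12360 genes), edgeR recovered 91% of 2-fold and 99% of 4-fold changes with 11 false calls. Those counts had a single spread and, apart from the planted changes, the same gene shares in every group, without a globin shift. The simulation thus does not cover the parting of the scales at 36 h, nor members at or near 0 counts.

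Gene positions came from GENCODE M21 by unversioned ID, sequences from RefSeq. Motifs were searched on both strands in 250 bases. Shared 31-base words were counted over annotated transcripts. Named genes were the 8 members and their paralog sums, the 3 genes of highest Pearson r (log2 CPM, prior count 2, mean of at least 1 CPM), called list genes of largest change, and the 3 nearest tested neighbours on each side. Alternatives were size factors of DESeq2, library sizes without globin genes, no count filter, a replicate block, the compared libraries alone, DESeq2 1.42.0, limma on TPM with pseudocounts of 1 and 0.1 above a mean TPM of 1 or for all genes, paralog pairs summed, and each library left out.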

Additional observations from a re-analysis of the deposited data

How the results depend on the processing

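Log2 changes of single members kept their direction and side of the threshold in 222 of 230 values under other settings of the count tests, in 58 of 81 in TPM, and in 198 of 222 with 1 library left out. For 12 h against 0 h, which was not tested, a value counted as kept when it lay within 1 SE of the main value. By that rule 6 of the TPM values were not kept, although their direction was the same. Summing paralog pairs leaves 5 features, of which 3 were higher at 24 h, 4 higher at 36 h, 3 lower at 48 h, and 1 higher and 3 lower at 72 h. In TPM with either pseudocount only 4 members remain; 3 were higher at 24 h, none higher and 3 lower at 36 h, none (0) higher at 48 h and none (0) at 72 h. Over all genes in TPM, 0 were higher and 3 lower at 36 h and 0 higher at 48 h. From 24 h to 36 h the TPM changes against the TMM rises were -1.25 or, with a pseudocount of 0.1, -1.37 for Apol10a, -0.80 for Apol10b, -0.03 or -0.04 for Apol11a and -0.77 for Apol11b. Leaving out 1 library gave 3 to 5 members lower from 36 h to 48 h, the lowest without replicate 1 at 36 h. Apol6 from 36 h to 48 h was -0.06 in TPM and ranged from -0.06 to 0.48 with a library left out. With SA, where no change was called, the ranges were -0.25 to 0.76 for Apol6, -0.16 to -0.13 for Apol8, -0.19 to 0.20 for Apol10a, -0.15 to 0.44 for Apol10b (-0.01 from the compared libraries alone), -0.15 to 0.62 for Apol11a and -0.17 to 0.26 for Apol11b. Calls near the threshold were lost in 4 of 6 such fits for Apol10b at 36 h and for Apol11a at 48 h and in 3 of 6 for Apol10b at 72 h; for Apol10b at 36 h also without the count filter (0.66, adjusted p = 0.0922), and at 72 h from the compared libraries alone (-1.05, adjusted p = 0.0505). The replicate block changed no call (edgeR with the block: 5 members higher at 24 h, Apol8 0.72, Apol11b 2.53), also where numbers did not pair the libraries (12 h and 0 h, correlations 0.081 to 0.428; 36 h and 24 h, 0.072 to 0.328). The causes of these differences were not tested. Depth limits Apol6, Apol9a and Apol10b most, with 256, 257 and 598 counts over all libraries.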
